A study of Mus musculus with 9 samples.

Results

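Voltage-gated calcium channels, voltage-gated sodium channels, transient receptor potential (TRP) channels, mucolipins and the intracellular calcium release channels were followed in mouse pancreatic islets. The members were the rows of the deposited count table whose symbol names a calcium channel subunit (Cacn), a numbered sodium channel subunit (Scn), a Trpa, Trpc, Trpm or Trpv gene, a mucolipin (Mcoln), a ryanodine receptor (Ryr) or an inositol trisphosphate receptor (Itpr). This rule gave 71 genes out of 25611 rows, and it used no measured value. RNA was sequenced from hand-picked islets of 4-week-old mice. The 4 control mice were Glis3fl/fl, with the conditional allele of the transcription factor gene Glis3 and no Cre. The 3 mice labelled knockout were Pdx1-Cre;Glis3fl/fl, so both groups carried the conditional allele. The Pdx1-Cre driver acts in the pancreatic lineage, which includes acinar and duct cells beside the endocrine cells, and no group carried it alone, so its effect cannot be told apart from that of the deletion. Glis3 binding came from 1 chromatin immunoprecipitation of islets from 8-week-old Glis3-eGFP mice with an antibody against GFP.

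Islet beta cells turn glucose metabolism into electrical activity. Closure of potassium channels depolarises the membrane, voltage-gated sodium and calcium channels shape the action potentials, and calcium entry triggers the release of insulin granules. TRP channels carry background or calcium-activated currents that add to the depolarisation, while inositol trisphosphate and ryanodine receptors release calcium from the endoplasmic reticulum and mucolipins release it from endosomes and lysosomes.

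Total counts were 18297697 to 48054551 per control library and 12099365 to 22578480 per labelled knockout library. Glis3 itself stood at 31.2 to 46.8 CPM in the controls and 52.1 to 57.8 CPM in the mice labelled knockout, so the targeted gene was called higher, against the direction of the label (log2 0.52, SE 0.14, edgeR adjusted p = 0.0257). CPM is counts scaled to a library of 1e+06 counts after TMM scaling (trimmed mean of M values). A whole-gene count does not separate deleted exons from the rest, so the deletion was not checked by it. The labels give no sex, but Xist reads marked controls 1 and 2 and labelled knockouts 1 and 2 and not the other libraries. Each group thus held libraries with and without Xist reads. Of 8 beta cell markers 5 were lower and Iapp was higher, and their summed level was 329303 to 550348 CPM in controls and 189026 to 299292 CPM in labelled knockouts. Ins1 and Ins2 made up most of that sum in every library. Both gamma cell markers (Ppy and Pyy) were lower. The summed acinar markers overlapped, at 692 to 4228 CPM in controls and 2336, 12640 and 3489 CPM in labelled knockouts 1 to 3. Amy2a5 was at 0 in every library, and none of the 9 tested acinar markers passed. Of the 7 alpha cell markers 2 were higher and 3 lower, and 1 of 4 delta (Rbp4) and 1 of 6 duct markers (Spp1) were higher. Summed endothelial markers were 507 to 558 CPM in controls and 555 to 712 CPM in labelled knockouts, and none of the 6 passed. Of 7 immune markers 6 were tested, and Cd79a alone passed, as lower. Adgre1 (log2 0.81), Lyz2 (log2 0.72), Csf1r (log2 0.30) and Cd68 (log2 0.28) leaned higher and Ptprc lower (log2 −0.19), none of them passing. The part of these cell type signals in the channel results was not tested.

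Channel genes changed in both directions in the mice labelled knockout. Of the 71 members 48 had enough reads to be tested, and of these 4 were lower, 5 were higher and 39 did not pass (edgeR quasi-likelihood test, Benjamini-Hochberg adjusted p under 0.05 over 14529 genes). The 4 that fell were Mcoln3, Trpm5, Cacng4 and Itpr3, and the 5 that rose were Trpm1, Scn2a, Trpc4, Scn3a and Cacna1a. Over all tested genes 5.25% were called lower, 8.73% higher and 14.0% in either direction, against 18.75% of the tested members. The median log2 fold change was 0.098 for the tested members and 0.0065 for all tested genes. Setting Trpm1 to its lower bound could not move the median, since Trpm1 stayed above it. In 15 tested members the CPM of the groups did not overlap (8 lower, 7 higher), against 26.6% of all tested genes (12.6% lower, 14.0% higher). Scaled by library size alone, which moved the median of all tested genes to 0.18, 3 members were lower and 7 higher. That setting called 2178 of the 14529 genes. Without labelled knockout 3 the counts were 6 lower and 6 higher of 56 tested members, with 1850 of 14890 genes called.

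**Figure D1:**
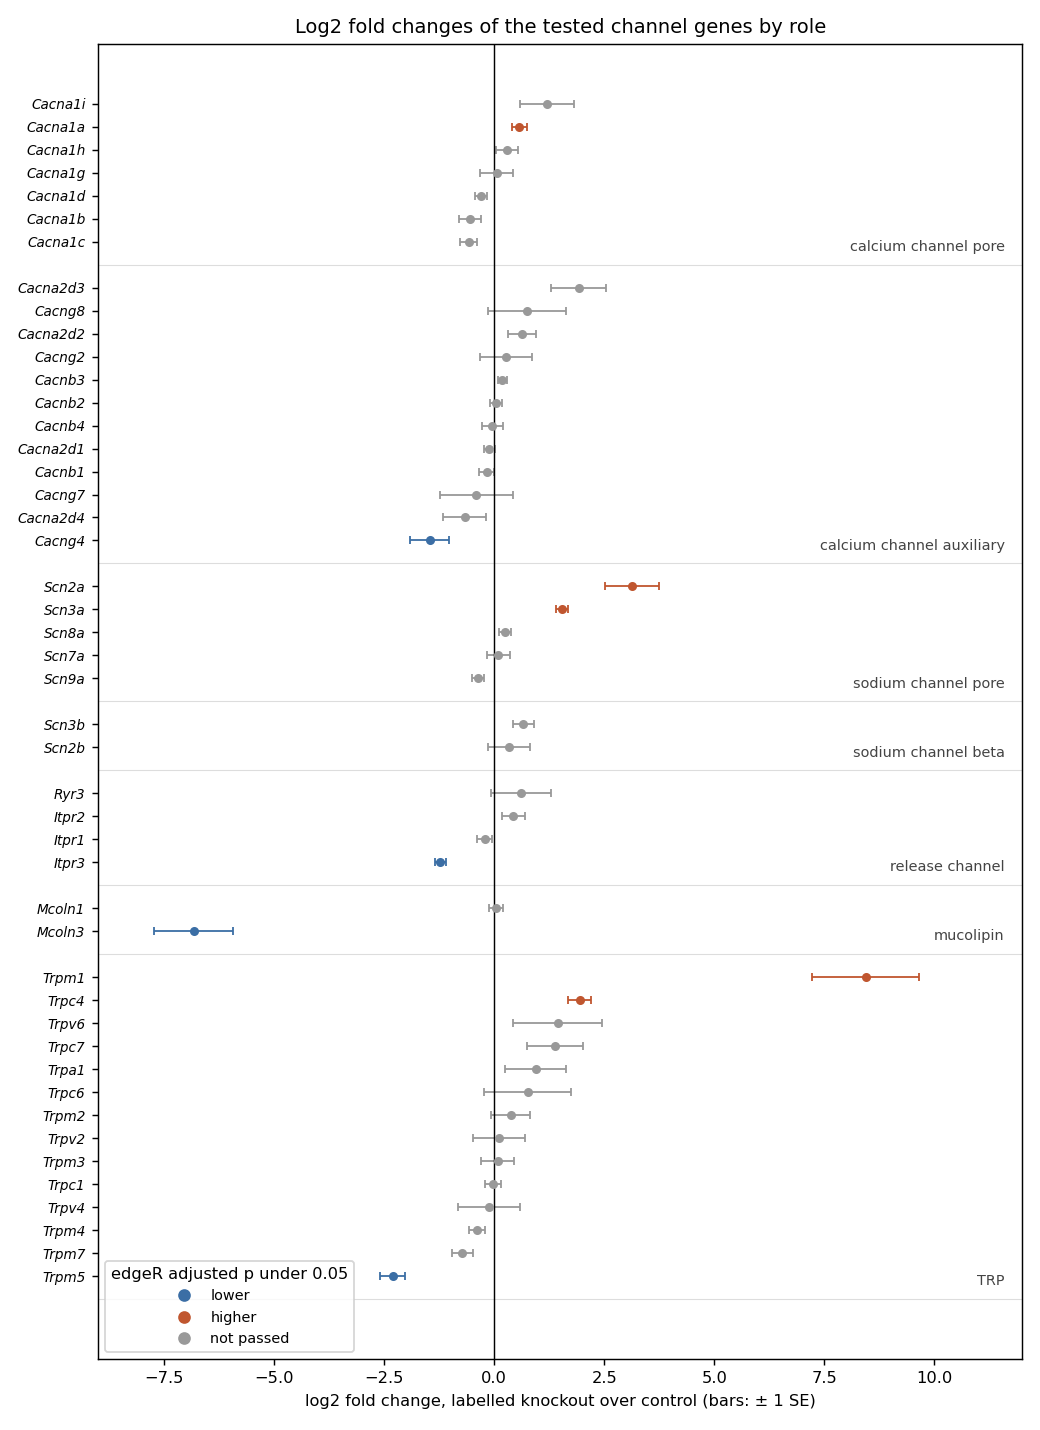
Log2 fold changes (labelled knockout over control, horizontal axis) of 46 tested channel genes, ordered within their roles, with bars of 1 SE; blue and red points passed the edgeR threshold as lower and higher. Most points lie within 1 log2 unit of 0, Mcoln3 lies far to the left, and Trpm1 lies far to the right at a value that depends on the prior count because no control read was found.

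Among the TRP genes, Trpm5 fell. Trpm5 encodes a monovalent cation channel opened by intracellular calcium, known from taste cells and beta cells (Entrez 56843, chromosome 7, 143071529 to 143094642, minus strand, mm10). Its level was 163, 151, 128 and 175 CPM in the controls (mice 1 to 4) against 20.5, 23.8 and 48.7 CPM in the labelled knockouts (mice 1 to 3). Every labelled knockout library lay below every control; labelled knockout 3 was the highest of its group. The mean was 154 ± 20 CPM (SD, n = 4) against 31.0 ± 15.4 CPM (SD, n = 3), a 4.96-fold drop (log2 −2.31 with SE 0.28, edgeR adjusted p = 3.51e-04). In bulk islets, fewer cells of a type and less RNA per cell cannot be told apart. The sum over the beta cell marker list was also lower, as given above, but most of it was Ins1 and Ins2. In the same list Slc2a2 (log2 −2.49), Mafa (−1.79), Ins2 (−1.59), Ins1 (−1.30) and Nkx6-1 (−1.21) were lower. Ucn3 (log2 −0.78) and G6pc2 (log2 −0.58) leaned lower without passing. Iapp alone rose, from 20480 to 28168 CPM in controls to 72039 to 98532 CPM in labelled knockouts. The part of the beta cell signal in the Trpm5 result was not tested.

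Trpm4 encodes the closest relative of the Trpm5 channel, also opened by calcium. It stood at 14.9, 14.7, 15.3 and 14.9 CPM in controls and 10.5, 9.42 and 14.2 CPM in labelled knockouts, without overlap but short of the threshold (log2 −0.39, SE 0.18, edgeR adjusted p = 0.177). Trpm7, a channel fused to a kinase that carries magnesium and calcium, was at 36.5, 30.8, 29.2 and 31.5 CPM in controls and 11.4, 18.6 and 27.8 CPM in labelled knockouts. These groups did not overlap either, although labelled knockout 3 came close to the lowest control. Trpm7 narrowly missed the threshold (log2 −0.72, SE 0.23, edgeR adjusted p = 0.0543). It passed without labelled knockout 3 (log2 −1.11, edgeR adjusted p = 0.00573), with a term for sex (edgeR adjusted p = 0.043) and in the libraries with Xist reads alone (edgeR adjusted p = 0.0427). DESeq2 (adjusted p = 0.0193) and limma-voom (adjusted p = 0.0307) also called Trpm7. Its adjusted p ran from 0.00573 to 0.169 with 1 library left out, and to 0.855 over all alternatives.

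Trpm1, a channel known from retinal bipolar cells and melanocytes, was absent from the control reads and present in every labelled knockout library (Entrez 17364, chromosome 7, 64153835 to 64269759, plus strand). The 4 controls held 0 counts, and labelled knockouts 1 to 3 held 29, 31 and 38 counts, or 2.15, 1.34 and 1.68 CPM. Taking 3 counts for all controls together as the floor, Trpm1 was at least 64.8-fold higher (edgeR adjusted p = 9.47e-04), and without control 2, the deepest library, at least 36.4-fold. The spans of Mir211 and Mir6416 lie inside that of Trpm1 and neither had a count. Trpm2, an ADP-ribose-gated calcium channel, overlapped between the groups (4.04 ± 2.14 and 5.35 ± 2.38 CPM), as did Trpm3, a steroid- and heat-sensitive channel (3.22 ± 0.986 and 3.40 ± 1.21 CPM; SD, n = 4 and n = 3 for both).

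Trpc4 rose among the receptor-operated TRP genes. Trpc4 (Entrez 22066, chromosome 3, 54156057 to 54318471, plus strand) encodes a cation channel that opens downstream of phospholipase C. It was at 3.69, 2.41, 4.57 and 3.11 CPM in controls and 16.0, 11.1 and 12.3 CPM in labelled knockouts, so every labelled knockout lay well above every control. The change was 3.84-fold (log2 1.94, SE 0.26, edgeR adjusted p = 1.91e-04). Summed stellate, pericyte and smooth muscle markers were 218 to 283 CPM in controls and 311 to 419 CPM in labelled knockouts. Rgs5 made up most of that sum in every library and was the 1 of 8 that passed (log2 0.61). Col1a1 (log2 0.56), Tagln (0.42), Des (0.38), Acta2 (0.24), Cspg4 (0.17) and Pdgfrb (0.10) leaned higher without passing. Myh11 alone leaned lower (log2 −0.22). The part of these markers in the Trpc4 rise was not tested. Trpc1, a partner subunit of other TRPC channels, was at 17.9 ± 2.68 and 17.6 ± 3.24 CPM (SD, n = 4 and n = 3). Of the 22 TRP genes 15 were tested, with 1 lower, 2 higher and 12 not passing.

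Mcoln3 was close to lost while Mcoln1 was not called. The mucolipins are calcium-permeable channels of endosomes and lysosomes, and Mcoln1 is the broadly expressed one. Mcoln3 (Entrez 171166, chromosome 3, 146121791 to 146140646, plus strand) had 57, 151, 47 and 43 counts in the controls, whereas the labelled knockouts held 0, 0 and 1 count. No library of one group came near the other. The counts correspond to 1.99, 2.94, 2.86 and 2.06 CPM against 0, 0 and 0.0443 CPM (edgeR adjusted p = 1.58e-04), and the 95% counting interval of the ratio, labelled knockout over control, was 0.000168 to 0.0374. Mcoln1 was at 22.5 ± 2.90 CPM in controls (SD, n = 4) and 23.1 ± 3.50 CPM in labelled knockouts (SD, n = 3; log2 0.04, SE 0.16, edgeR adjusted p = 0.909). Mcoln2, the neighbour of Mcoln3 on chromosome 3, had 1 count in all libraries together.

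Among the release channels Itpr3 fell and the other inositol trisphosphate receptors were not called. These receptors release endoplasmic reticulum calcium when receptors coupled to phospholipase C are active. Itpr3 (Entrez 16440, chromosome 17, 27057304 to 27122223, plus strand) was at 77.0, 86.9, 68.3 and 71.9 CPM in controls and 29.4, 37.0 and 31.4 CPM in labelled knockouts. The groups were well apart and each was tight. The drop was 2.33-fold (log2 −1.22, SE 0.13, edgeR adjusted p = 2.5e-05). Itpr1 overlapped between groups at 62.9 ± 11.4 and 54.2 ± 12.5 CPM (SD, n = 4 and n = 3; log2 −0.22, edgeR adjusted p = 0.446). Itpr2 also overlapped at 17.3 ± 4.73 and 23.6 ± 9.68 CPM (SD, n = 4 and n = 3; log2 0.43, edgeR adjusted p = 0.303), with labelled knockout 1 highest at 34.7 CPM. Of the ryanodine receptors, which open in response to calcium itself, Ryr3 was tested and did not pass (log2 0.61, edgeR adjusted p = 0.615). Ryr1, the skeletal muscle form, had 0 counts in all controls and 7, 19 and 1 in labelled knockouts 1 to 3. Pooled over the labelled knockouts, the bound against the same group floor was 17.9-fold. It does not hold for each mouse, as labelled knockout 3 was at 0.0443 CPM, near the floor of 0.0255 CPM. The pooled bound was 8.69 without labelled knockout 2, 10 without control 2 and 27.8 without labelled knockout 3. Ryr1 fell below the filter on low counts, and Ryr2, the cardiac form, did too, with 1 to 14 counts in controls and 25, 0 and 6 in labelled knockouts 1 to 3.

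The sequences just upstream of the start are shown for the members that fell most clearly and for Itpr2, whose start also lay under a Glis3 peak. Each is the 250 bases before the RefSeq start (GRCm38.p6, the assembly of mm10), read 5′ to 3′ on the gene's strand, with the bases inside a deposited peak in capitals. The regions are chr17:27057054-27057303 (plus) for Itpr3, chr6:146502224-146502473 (minus) for Itpr2, chr3:146121541-146121790 (plus) for Mcoln3 and chr7:143094643-143094892 (minus) for Trpm5.
Itpr3: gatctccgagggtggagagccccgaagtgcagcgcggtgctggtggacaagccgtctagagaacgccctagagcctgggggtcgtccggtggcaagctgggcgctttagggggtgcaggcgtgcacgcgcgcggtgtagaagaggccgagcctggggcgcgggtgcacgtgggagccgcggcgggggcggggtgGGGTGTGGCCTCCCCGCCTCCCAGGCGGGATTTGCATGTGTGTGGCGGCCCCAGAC
Itpr2: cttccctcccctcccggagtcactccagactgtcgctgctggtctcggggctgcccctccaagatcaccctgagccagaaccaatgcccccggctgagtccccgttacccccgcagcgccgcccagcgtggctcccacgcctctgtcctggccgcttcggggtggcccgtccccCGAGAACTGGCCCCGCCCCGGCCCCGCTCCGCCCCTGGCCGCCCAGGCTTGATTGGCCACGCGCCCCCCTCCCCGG
Mcoln3: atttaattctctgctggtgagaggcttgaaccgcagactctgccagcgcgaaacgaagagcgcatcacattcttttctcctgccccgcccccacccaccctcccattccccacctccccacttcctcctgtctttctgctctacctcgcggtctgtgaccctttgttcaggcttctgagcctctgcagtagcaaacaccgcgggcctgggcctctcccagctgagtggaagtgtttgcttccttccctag
Trpm5: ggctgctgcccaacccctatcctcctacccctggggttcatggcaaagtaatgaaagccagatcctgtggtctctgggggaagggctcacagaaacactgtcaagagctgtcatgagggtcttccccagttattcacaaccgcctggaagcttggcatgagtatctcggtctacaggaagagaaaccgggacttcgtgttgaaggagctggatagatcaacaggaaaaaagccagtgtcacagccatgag
The peaks covered the last 56 bases before the Itpr3 start and the last 76 before the Itpr2 start, and none of the Mcoln3 or Trpm5 stretch. The GC content was 72.0% for Itpr3, 74.4% for Itpr2, 58.0% for Mcoln3 and 52.8% for Trpm5. The motif TGGGGGGT, the G-rich core of the site known for Glis factors, was searched on both strands and was in none of the 4 stretches. The shorter run GGGGGG, which every TGGGGGGT contains, was found once, on the opposite strand of Itpr2. Among 32851 such stretches in RefSeq, 1.36% held TGGGGGGT and 16.2% held GGGGGG, and of the 71 stretches that belong to 56 members 1 and 17 did.

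Neighbouring sodium channel genes rose on chromosome 2. The alpha subunits form the sodium pore that drives the upstroke of action potentials. Scn3a (Entrez 20269, 65457118 to 65567492, minus strand), which encodes the NaV1.3 channel, was at 24.1, 20.8, 17.5 and 17.2 CPM in controls and 61.7, 56.5 and 55.6 CPM in labelled knockouts. The spread within each group was small beside the gap, and the change was 2.90-fold (log2 1.54, SE 0.14, edgeR adjusted p = 6.58e-06). Scn2a (Entrez 110876, 65620769 to 65767447, plus strand), which encodes NaV1.2, starts 53.3 kb from the Scn3a span and runs the opposite way. It had 23, 7, 14 and 5 counts in controls and 82, 80 and 77 counts in labelled knockouts, or 0.507 ± 0.372 CPM (SD, n = 4) against 4.32 ± 1.53 CPM (SD, n = 3). All labelled knockouts lay above all controls (log2 3.13, SE 0.61, edgeR adjusted p = 0.0036). In the 4 libraries with Xist reads alone Scn2a did not pass (log2 3.38, edgeR adjusted p = 0.0731), and over the alternatives its adjusted p ran from 3.74e-06 to 0.0731.

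The other genes of the same chromosome 2 cluster were not called. Scn9a, which encodes NaV1.7, was at 30.3, 32.6, 32.1 and 31.9 CPM in controls and 23.9, 22.2 and 27.3 CPM in labelled knockouts. The groups did not overlap and the gene did not pass (log2 −0.37, SE 0.13, edgeR adjusted p = 0.0713). It did pass by DESeq2 (adjusted p = 0.0465) and when labelled knockout 3 was left out (edgeR adjusted p = 0.0452). The adjusted p of Scn9a ran from 0.0452 to 0.179 with 1 library left out, and to 1 over all alternatives. The alternatives include glmTreat, which tests for a change beyond 1.5-fold and so gives a high p to smaller changes. Scn7a, a sodium-level sensor gene expressed in glia, overlapped at 8.53 ± 1.71 and 9.13 ± 3.09 CPM (SD, n = 4 and n = 3), and Scn1a was too low to test. The 5 genes of the cluster span 1328 kb. On chromosome 15, Scn8a (NaV1.6) was at 31.1 ± 4.05 and 36.7 ± 3.76 CPM (SD, n = 4 and n = 3; log2 0.24, edgeR adjusted p = 0.275). Of 9 Schwann cell and neuron markers Tubb3 was lower (log2 −0.56) and 8 did not pass, and their summed level was 99.2 to 139 CPM in controls and 91.9 to 138 CPM in labelled knockouts.

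None of the 3 tested sodium channel beta subunit genes, which adjust gating and surface level of the pore, passed. At an unadjusted p under 0.05 there was 1 by edgeR, where 4091 of all 14529 tested genes were under it. DESeq2 called 1, where it called 2660 of 14529 genes, and in both cases the gene was Scn3b. Scn3b was at 10.5, 11.1, 7.12 and 8.47 CPM in controls and 17.7, 16.7 and 10.2 CPM in labelled knockouts. Labelled knockout 3 lay among the controls, and without it Scn3b passed (log2 0.85, edgeR adjusted p = 0.0297). In the main fit with all libraries Scn3b did not (log2 0.66, SE 0.23, edgeR adjusted p = 0.072). Its adjusted p ran from 0.0297 to 0.212 with 1 library left out, and to 1 over all alternatives, glmTreat among them. With all libraries it passed by DESeq2 (adjusted p = 0.0494) and when scaled by library size alone (edgeR adjusted p = 0.0493). Scn2b overlapped between the groups at 1.68 ± 0.347 and 2.11 ± 1.13 CPM (SD, n = 4 and n = 3).

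**Figure D2:**
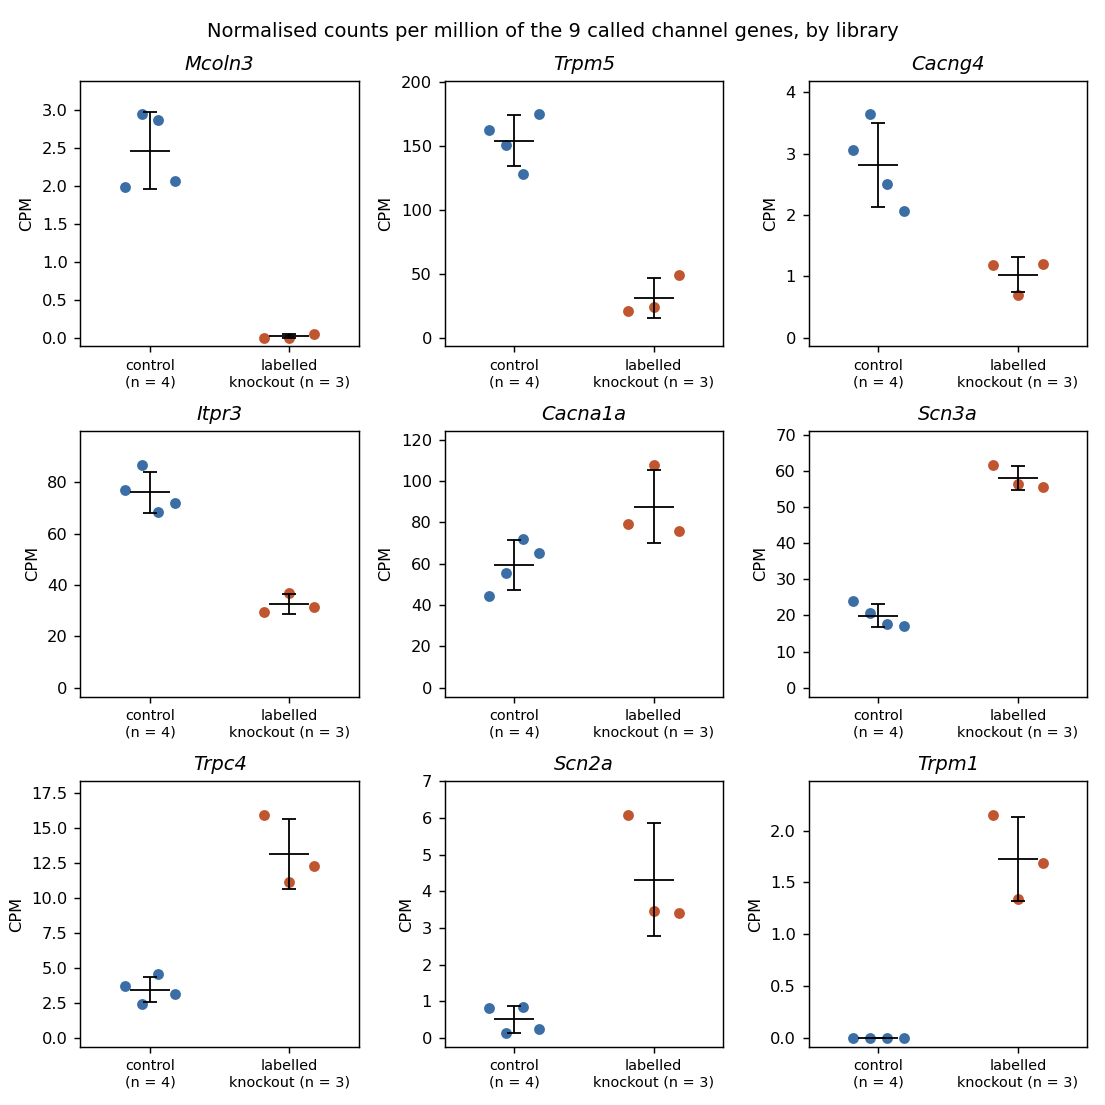
CPM (vertical axis, linear) of the 9 called channel genes in each library, with controls in blue, labelled knockouts in red, and the horizontal mark and bar at the mean ± SD (n = 4 and n = 3). The groups do not overlap in any panel; in Cacna1a the highest control was 72.1 CPM and the lowest labelled knockout 75.6 CPM.

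For the pore subunits of voltage-gated calcium channels, Cacna1a was the 1 of 7 tested genes that passed, and the L-type genes did not. Cacna1a (Entrez 12286, chromosome 8, 84415364 to 84640249, plus strand) forms the P/Q-type channel. It was at 44.3, 55.4, 72.1 and 65.4 CPM in controls and 79.4, 108 and 75.6 CPM in labelled knockouts, with the groups close to touching. The change was 1.48-fold (log2 0.57, SE 0.17, edgeR adjusted p = 0.0398). The call was lost without control 1, 2 or 4 or any 1 labelled knockout, at adjusted p from 0.0532 to 0.169. Over the alternatives the adjusted p of Cacna1a ran from 0.00397 to 1, the upper end by glmTreat at 1.5-fold.

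Cacna1c and Cacna1d form the L-type channels CaV1.2 and CaV1.3, the main routes of calcium entry known in mouse beta cells. Cacna1c (chromosome 6, 118587240 to 119196409, minus strand) was at 39.7, 44.6, 48.8 and 47.0 CPM in controls and 18.7, 34.3 and 37.0 CPM in labelled knockouts. No labelled knockout reached a control, and labelled knockout 1 was lowest by far. It missed the threshold (log2 −0.58, SE 0.19, edgeR adjusted p = 0.0633). Cacna1c passed with the replicate block (log2 −0.61, edgeR adjusted p = 0.0229), by DESeq2 (adjusted p = 0.0331) or when labelled knockout 3 was left out (edgeR adjusted p = 0.037). Its adjusted p ran from 0.037 to 0.137 with 1 library left out. Over all alternatives the range was 0.0229 to 1, the upper end by glmTreat. Cacna1d (chromosome 14, 30039941 to 30491156, minus strand) was at 67.5, 78.3, 62.6 and 57.2 CPM in controls and 50, 63.4 and 49.3 CPM in labelled knockouts. These values overlapped (log2 −0.29, SE 0.14, edgeR adjusted p = 0.184). The span of Cacna1c overlaps that of Dcp1b on the opposite strand and that of Cacna1d overlaps Dcp1a, and since the strand setting of the counting is not given, reads in those stretches may have been lost or shared.

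Other calcium pore genes did not pass. Cacna1b (N-type) was at 7.71 ± 1.24 CPM in controls (SD, n = 4) and 5.22 ± 1.18 CPM in labelled knockouts (SD, n = 3; log2 −0.56, edgeR adjusted p = 0.169). The T-type genes, which open near the resting potential, were Cacna1g (2.47 ± 0.303 and 2.59 ± 0.660 CPM), Cacna1h (5.50 ± 1.02 and 6.76 ± 0.873 CPM) and Cacna1i. Cacna1i was at 1.04, 1.36, 0.244 and 0.479 CPM in controls and 1.71, 2.20 and 1.68 CPM in labelled knockouts, without overlap but at an edgeR adjusted p of 0.222. Cacna1e (R-type) had 11 counts in control 1, 4 in labelled knockout 1 and none elsewhere.

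Auxiliary subunits of calcium channels set their trafficking and gating, and 1 of 12 tested passed. Cacng4 (Entrez 54377, chromosome 11, 107734780 to 107794464, minus strand), a gamma subunit gene of the family that also accompanies AMPA glutamate receptors, was at 3.07, 3.64, 2.5 and 2.06 CPM in controls and 1.19, 0.691 and 1.2 CPM in labelled knockouts. The groups did not overlap, and Cacng4 stood 2.77-fold below control (log2 −1.47, SE 0.45, edgeR adjusted p = 0.0451). With the replicate block the adjusted p was 0.0808, and without control 1, 2, 3 or 4 or labelled knockout 2 or 3 it was 0.0555 to 0.165. For Cacng4 the range over the alternatives was 0.00811 to 0.235, the upper end by glmTreat. Its relative Cacng5 had 5, 8, 2 and 2 counts in controls and none in labelled knockouts, too few to test.

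The alpha2delta and beta subunit genes were not called. Cacna2d1 was at 89.1 ± 9.38 and 82.7 ± 4.15 CPM, Cacnb2 at 24.3 ± 0.678 and 25.1 ± 3.61 CPM, and Cacnb4 at 8.67 ± 1.17 and 8.37 ± 2.39 CPM (SD, n = 4 and n = 3). Cacnb3 did not overlap, at 83.5 to 91.9 CPM in controls and 95.4 to 105 CPM in labelled knockouts, but the difference was small and did not pass (log2 0.18, SE 0.11, edgeR adjusted p = 0.283). Cacna2d3 rested on 1 library. It was at 9.80, 1.25 and 2.21 CPM in labelled knockouts 1 to 3 and 0.548 to 1.39 CPM in controls (log2 1.92, SE 0.62, edgeR adjusted p = 0.0566). Without labelled knockout 1 the log2 change was 0.59, and without labelled knockout 2 it was 2.35 (edgeR adjusted p = 0.0134, with a range of 0.0134 to 0.557 over the alternatives). With all libraries Cacna2d3 passed by DESeq2 (adjusted p = 0.0151), by library size alone (edgeR adjusted p = 0.0256) and with no filter on low counts (edgeR adjusted p = 0.0452).

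Ratios of related subunits within a library need no scaling between libraries, and 8 pairs were compared. With 1 count added to each gene, a ratio with a gene at or near 0 counts also depends on depth and on the added count. For a pair of 4 against 3 libraries the smallest 2-sided p of the exact permutation test is 0.0571, so no ratio could pass 0.05. The log2 ratio of Trpm5 to Trpm4 was 3.06 to 3.55 in controls and 0.954, 1.33 and 1.78 in labelled knockouts, a difference of −2.0 without overlap (exact permutation p = 0.0571, 0.0914 adjusted over the 8). Scn3a to Scn9a changed sign, from −0.89 to −0.33 in controls to 1.02 to 1.37 in labelled knockouts, so that counts of Scn3a were the lower of the pair in each control and the higher in each labelled knockout. Cacna1a to Cacna1d was −0.61, −0.50, 0.20 and 0.19 in the controls by number, whereas the labelled knockouts had 0.66, 0.77 and 0.61. Controls 1 and 2, the controls with Xist reads, were the lower ones. Itpr1 to Itpr3 was −0.44 to 0.023 in controls and 1.16, 0.14 and 0.84 in labelled knockouts, and Mcoln3 to Mcoln1 fell by 5.26 on the log2 scale, and the difference was −6.05 with 0.5 counts added in place of 1. These 5 pairs did not overlap and each had the same p. Cacna1c to Cacna1d overlapped (difference −0.35, exact permutation p = 0.229), as did Cacnb2 to Cacnb3 (−0.14, p = 0.343) and Ryr2 to Itpr3 (1.68, p = 0.343).

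**Figure D3:**
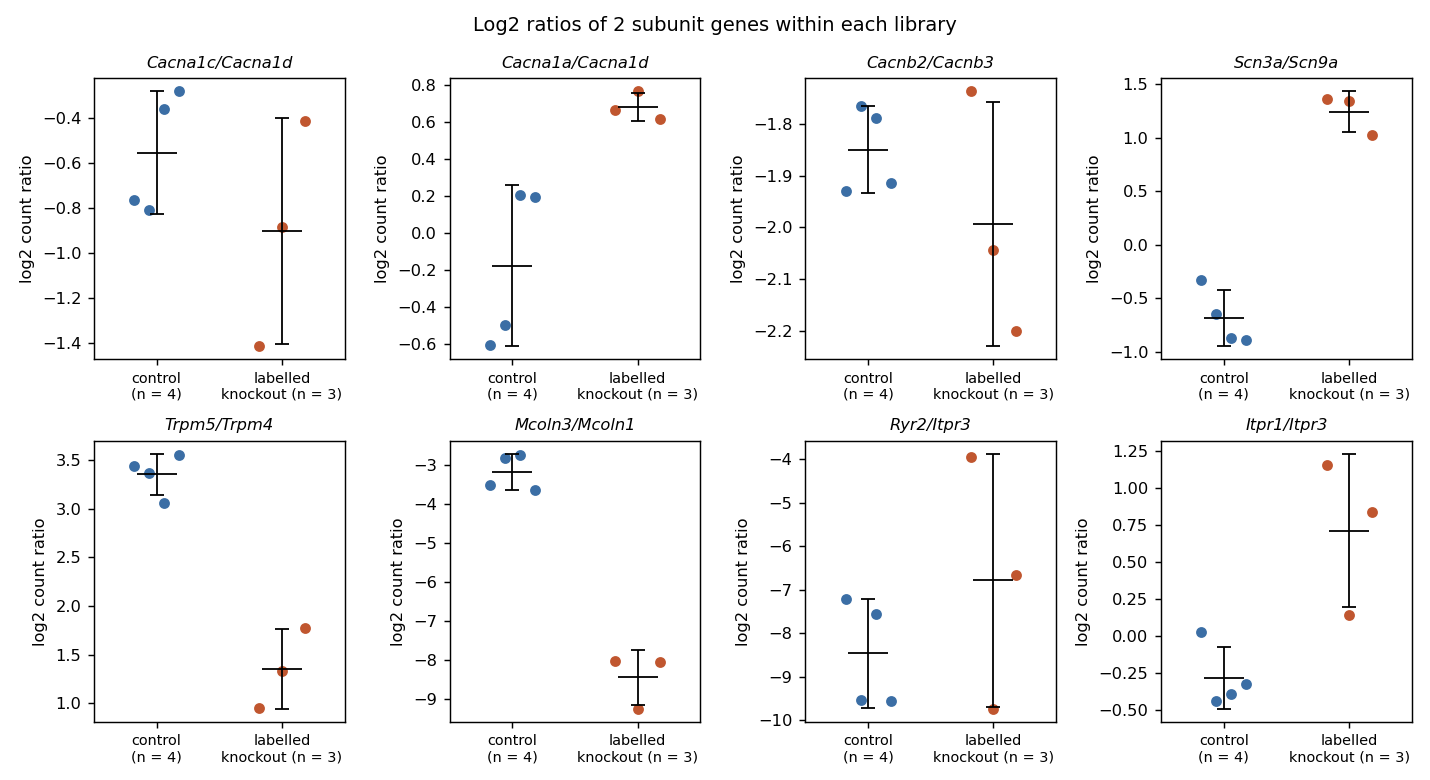
Log2 ratio of the counts of 2 subunit genes within each library (vertical axis, 1 count added to each) for 8 pairs, with controls in blue, labelled knockouts in red and the mean ± SD in black. The groups are apart for Cacna1a/Cacna1d, Scn3a/Scn9a, Trpm5/Trpm4, Mcoln3/Mcoln1 and Itpr1/Itpr3, and overlap in the other 3 panels.

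Glis3 peaks lay near the start of fewer channel genes than of tested genes at large. A peak midpoint fell within 10 kb of the 5′ end in 26 of 48 tested members (54.2%), against 80.5% of all tested genes, and inside the gene span in 24 (50%), against 61.2%. The members were also less expressed, with a median level of 6.34 CPM against 15.2 CPM for all tested genes. Among genes with a mean of at least 10 CPM, a limit chosen after the values were seen, 15 of 20 members (75.0%) and 91.4% of all genes had a peak within 10 kb. There was 1 peak list and no replicate, so these shares are descriptions.

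Called members differed in where their peaks lay. Of the 4 that fell, 3 had a peak within 10 kb. Itpr3 had peaks 44 bp and 6921 bp downstream of its start and 6 inside its span, or 9.24 per 100 kb. Over the summed spans of all tested genes the value was 1.71, in which long genes weigh most, so it is not a typical value per gene. Cacng4 had 3 within 1.1 kb of its start, at 424, −484 and −1090 bp, where negative is upstream. Mcoln3 had 1, at −3942 bp (chr3:146117749-146117948). Trpm5 had none within 10 kb, and its nearest were at −12.6 kb and, inside the gene, at 17.2 kb (chr7:143077373-143077572).

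Of the 5 that rose, Cacna1a had a peak at −890 bp and Scn3a had one at −6365 bp. That single Scn3a peak (chr2:65573757-65573956) lies between the Scn3a and Scn2a spans and was the one peak within 50 kb of the Scn2a start, at −46.9 kb. Trpc4 and Trpm1 had no peak within 50 kb. Peaks at the start were also common in members that did not pass, among them Cacna1b (476 bp), Cacna1g (479 bp), Cacna1h (263 bp), Cacna1i (1014 bp), Itpr1 (239 bp), Itpr2 (23 bp), Trpm7 (117 bp), Trpm4 (481 bp), Trpm3 (4 bp), Trpm2 (−51 bp), Scn3b (229 bp), Scn8a (641 bp), Scn9a (222 bp), Mcoln1 (−145 bp), Trpc1 (43 bp), Cacna2d1 (−239 bp), Cacna2d3 (−317 bp), Cacnb2 (−218 bp) and Cacnb4 (219 bp). Cacna1d and Cacna1c had none within 10 kb of the 5′ end but 12 and 11 inside their long spans, or 2.66 and 1.81 per 100 kb.

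**Figure D4:**
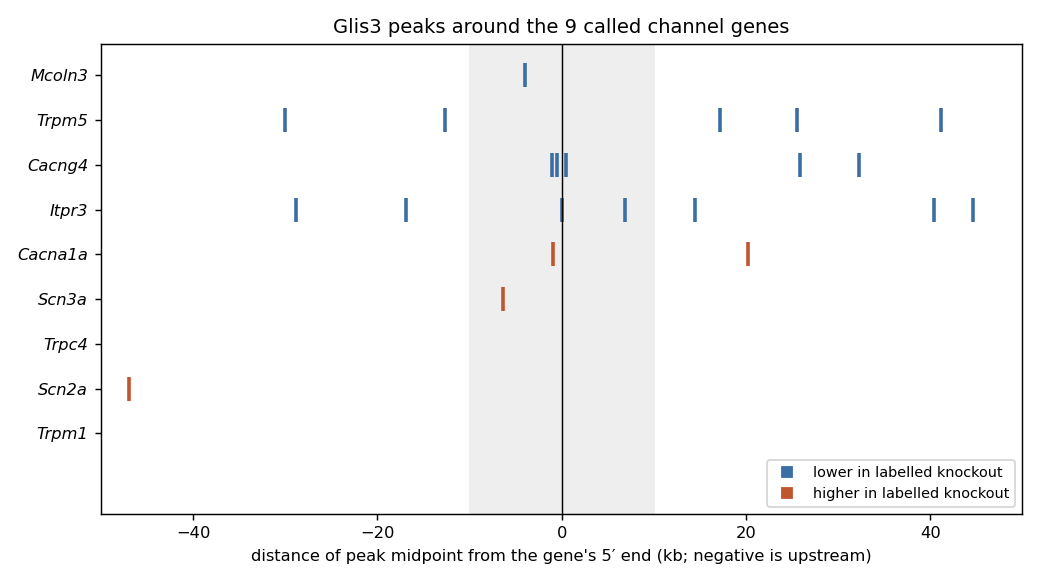
Distance of Glis3 peak midpoints from the 5′ end of the 9 called channel genes (horizontal axis, kb, negative upstream), with genes that fell in blue, genes that rose in red and the 10 kb window in grey. Itpr3 has the most marks, Cacng4 has 3 at its start, and Trpc4 and Trpm1 have none within 50 kb.

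The 23 members that were not tested had at most 1.99 CPM in any library. Trpc2, Trpv5 and Scn10a had no count in any library. The Trpc2 span lies within that of Xntrpc, so reads there may not have been assigned to either. Scn4a, the skeletal muscle sodium channel, had 2 counts in control 1 and none in the other controls, and 3, 46 and 10 in labelled knockouts 1 to 3. Trpv1, the capsaicin receptor, had 10 counts in labelled knockout 3 and none elsewhere. When no filter on low counts was used, Ryr1 and Scn4a passed as higher, and so did Cacna2d3.

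Other genes of calcium handling and of the proteins that regulate these channels moved both ways. Of 95 listed symbols 92 were in the table and 81 were tested, with 8 lower, 8 higher and 65 not passing, 19.8% called against the 14.0% of all tested genes, and a median log2 fold change of 0.13. Fkbp1b, whose product binds ryanodine receptors, fell to 31.0 ± 9.10 CPM from 130 ± 33.6 CPM in controls (log2 −2.07, SE 0.23, edgeR adjusted p = 8.1e-05). P2rx4, an ATP-gated cation channel gene, fell from 48.5 ± 4.69 to 27.6 ± 1.81 CPM (log2 −0.81), and Cabp7, a calcium-binding protein gene, from 14.0 ± 2.97 to 5.12 ± 1.03 CPM (log2 −1.47).

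Pumps of the secretory pathway were among the genes that fell. The endoplasmic reticulum pump Atp2a2 was at 974 ± 50.7 and 648 ± 165 CPM (log2 −0.59), and the Golgi pump Atp2c1 at 94.7 ± 6.90 and 67.9 ± 1.84 CPM (log2 −0.48). Jph3, which ties the plasma membrane to the endoplasmic reticulum, was lower (log2 −0.56), while its relative Jph4 was higher (log2 0.77). The sodium-calcium exchangers Slc8a1 (47.6 ± 0.728 to 67.0 ± 6.09 CPM, log2 0.49) and Slc24a3 (1.70 ± 0.473 to 6.89 ± 1.68 CPM, log2 2.04) rose. Fgf12, whose product binds sodium channels, rose from 47.8 ± 4.56 to 85.5 ± 13.8 CPM (log2 0.84), and Asph (log2 0.95) and Sri, the sorcin gene (log2 0.46), also rose. Each mean ± SD here is over 4 controls and 3 labelled knockouts, and all 12 passed by edgeR at adjusted p from 8.1e-05 to 0.0381.

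Some of the later calls in that list were thin. Sri was lost when control 1, 2 or 4, or labelled knockout 1 or 3, was left out (0.0776 to 0.129, edgeR adjusted p), Jph3 without control 2 or 3 or labelled knockout 2 or 3 (0.0522 to 0.0727), and Atp2a2 without control 3 or labelled knockout 1 or 2 (0.058 to 0.113). Over the alternatives their adjusted p ran from 0.00561, 0.00547 and 0.0013 to 1, the upper end by glmTreat. The list's counts were 5 lower and 5 higher without control 2 or labelled knockout 1, 5 lower without control 3, 5 higher without labelled knockout 3, and 4 lower and 14 higher when scaled by library size alone. In that order the settings called 1475, 1601, 1588, 1850 and 2178 of 14360, 14866, 14516, 14890 and 14529 tested genes.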

How the data were processed

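Islet RNA of 4 control and 3 labelled knockout mice and 1 Glis3 binding experiment were used, and the input library was not analysed here. Groups and replicate numbers came from the labels, and the design text says the RNA came from separate mice. The authors deposited whole-number counts per gene with mm10 spans, without normalisation, per the file headers. Tools listed, per the submitters' processing notes, include STAR 2.5 and featureCounts 1.5.0-p1; which strand option and annotation were used is not given in the sources used here. Glis3 peaks were 21254 intervals of 200 bp deposited with no score, and those notes also list HOMER 4.9.1, bedtools 2.24.0, Bowtie 1.2, cutadapt 1.2.1 and Picard 1.110, with no step assigned.

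Genes were kept with filterByExpr, scaled with TMM and compared with edgeR 4.0.16 (R 4.3.3, robust quasi-likelihood F test), with p-values adjusted over 14529 genes by the Benjamini-Hochberg method. The SE is the absolute log2 fold change over the square root of F. The fit was tested on simulated counts. Counting intervals and floors (3 counts) cover counting error alone. Gene length was not used, so levels are not compared between genes. Same-numbered libraries deviated together (correlations 0.173, 0.117 and 0.117 for numbers 1 to 3), and control 4 and labelled knockout 3, with different numbers and both without Xist reads, reached 0.157. The numbers were treated as pairs in an alternative fit. Peak distances run from the 5′ end of the gene span to the peak's midpoint. All 71 members matched RefSeq by Entrez identifier.

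The members and lists were chosen with earlier results of these data known. Named were the called members, Trpm5, Mcoln3, Cacna1d and Cacna1c, pore and Trpm genes and genes with a peak within 10 kb at a mean of at least 1 CPM, and in the calcium handling list the 12 with the smallest p. Results of 2 members are not reported here. Other genes named were chosen after their values were seen. Alternatives were RLE factors, library size alone, leaving out the 10 most abundant genes, 2 other filters on low counts, DESeq2 1.42.0, limma-voom (limma 3.58.1), the replicate block, each library left out, an adjusted p under 0.01, glmTreat at 1.5-fold, a pseudocount of 0.5 for ratios and other peak windows. Because glmTreat tests for a change beyond 1.5-fold, its adjusted p answers another question than the other fits. A term for sex and the 4 libraries with Xist reads alone were added after the data were seen, as were the bounds of Trpm1 and Ryr1 with 1 library left out.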

Additional observations from a re-analysis of the deposited data

Results flagged for a closer look

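In 2 genes 1 control lay apart from the other 3 by Dixon's criterion for 4 values, out of 51 results screened, and chance alone marks about 1 group in 20. Cacna1g was at 2.92 CPM in control 3 and at 2.26 to 2.37 CPM in the others. Cacna2d3 was at 0.548 CPM in control 3 and at 1.29 to 1.39 CPM in the others.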

How the results depend on the processing

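The calls of Itpr3, Mcoln3, Scn3a, Trpc4, Trpm1 and Trpm5 held in all 19 alternatives. With DESeq2 the channel members called were 7 lower and 7 higher of 48 tested, with 2660 of 14529 genes called. With no filter on low counts 8 of 68 tested members were higher, with 2126 of 18299 genes called in either direction. With 1 library left out the members called were 3 to 6 lower and 4 to 6 higher, of 46 to 56 tested. Cacna1a and Cacng4 were the calls lost, and 1475 to 1850 of 14337 to 14890 genes were called. The calcium handling list gave 4 lower and 14 higher by library size alone, 2 and 1 by glmTreat, and 4 and 5 at an adjusted p under 0.01. It gave 4 lower in libraries with Xist reads alone, and 5 to 7 lower and 5 to 8 higher with 1 library left out. Over 14529 tested genes 2178 were called by library size alone, 574 by glmTreat and 1067 at an adjusted p under 0.01. In libraries with Xist reads alone 1048 of 14746 genes were called. The replicate block changed the calls of Cacng4 (adjusted p = 0.0808) and Cacna1c (0.0229) and of no other named channel gene. A peak window of 100 kb took in 41 of 48 members (85.4%, against 95.0% of all tested genes) and one of 1 kb 23 (47.9% against 71.2%). Small log2 changes turned sign: by library size alone Cacna2d1 (0.047), Cacnb4 (0.12) and Trpc1 (0.12), with the replicate block Scn7a (−0.0021), and in libraries with Xist reads Trpm3 (−0.31). With 1 library left out they ran from −0.16 to 0.15 for Cacna1g, −0.057 to 0.12 for Cacnb2, −0.29 to 0.16 for Cacnb4, −0.074 to 0.14 for Mcoln1, −0.22 to 0.24 for Scn7a, −0.18 to 0.11 for Trpc1, −0.048 to 0.63 for Trpm2 and −0.21 to 0.32 for Trpm3. The causes were not tested. Low counts limit what can be said of the 23 untested members.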
